A study of Mus musculus with 6 samples.

Results

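Mitochondrial fatty acid oxidation genes code for the transporters and enzymes that carry long-chain fatty acids into the mitochondrial matrix, shorten them to acetyl-CoA and pass their electrons to the respiratory chain. A set of 37 such genes was picked out by mouse gene symbol from the 43629 genes counted in each left ventricle. All 37 were found, each under 1 Ensembl identifier, and all 37 were among the 13092 genes with enough counts to be tested. The hearts came from 6 F1 males of the CD-1 strain, aged 1 year. In utero, 3 had been exposed to vehicle (normal saline) and 3 to 20 mg/kg caffeine, injected i.p. into the pregnant dam once daily from embryonic day 6.5 to 9.5 (one field of the labels ends the exposure at 10.5). The comparison asks whether caffeine in early pregnancy leaves a mark on gene expression in the adult ventricle. CD-1 is an outbred strain. No gene was deleted or introduced in either group, and no treatment after birth is given in the labels. The paper lists echocardiography, done under isoflurane, and dobutamine injection at earlier ages for F1 offspring of this exposure. It does not say whether the 6 mice sequenced had received them. The sources used here do not tie the mice to litters, so p-values measure the spread between these hearts, some of which may be littermates. Poly(A) RNA was sequenced, and in bulk ventricle fewer cells of a type and less RNA per cell cannot be told apart.

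The adult heart draws most of its ATP from fatty acids. Acyl-CoA is made at the outer mitochondrial membrane, crosses as acylcarnitine, and is cut in rounds of dehydrogenation, hydration, a further dehydrogenation and thiolysis. Malonyl-CoA holds back entry at carnitine palmitoyltransferase 1, and many of these genes are known targets of the nuclear receptors PPARα and ERRα and their coactivator PGC-1α. Reduced expression of this pathway is a familiar feature of failing and hypertrophied hearts.

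No fatty acid oxidation gene passed the thresholds of the study (adjusted p below 0.05 and a fold change above 1.5) in edgeR's quasi-likelihood test, and 14 of the 13092 genes did (0.107%). The paper reported more genes at these thresholds with edgeR and does not name its test. By edgeR's exact test 61 genes were called higher and 33 lower here. The measured values of the 37 genes leaned one way. In the caffeine-treated hearts 35 of the 37 genes had a mean below that of the vehicle hearts by the fitted fold change, against 49.8% of all genes tested. The median log2 fold change of the 37 genes was -0.20, where that of all genes was 0.0009. In 10 of the 37 genes (27.0%) every caffeine-treated heart was below every vehicle heart, against 7.12% of all genes, and in 0 of the 37 was every caffeine-treated heart above, against 7.11% of all genes. At an unadjusted p below 0.05, 13 genes were lower, against 4.40% of all genes. The smallest adjusted p among the 37 was 0.102, for Ech1 (edgeR quasi-likelihood test, Benjamini-Hochberg). The fitted fold change exceeded 1.5 in 2 genes, Ucp3 and Acot1. By edgeR's exact and likelihood ratio tests, DESeq2 and limma-voom, 0 of the 37 passed both thresholds, and Ech1 alone had an adjusted p below 0.05 in the first 3 of these tests.

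Much of this difference lay in 1 vehicle heart. Vehicle replicate 1 was the highest of the 6 hearts in 33 of the 37 genes, and in 18.7% of all genes. Its median log2 deviation from a gene's mean over the 6 hearts was 0.25. The other vehicle hearts stood at -0.02 and 0.03, and the caffeine-treated hearts at -0.01, -0.11 and -0.18 in the order of their replicate numbers. Caffeine replicate 1 thus lay between the other 2 vehicle hearts, while caffeine replicate 3 was the lowest heart in 23 genes and caffeine replicate 2 in 9. When vehicle replicate 1 was left out, the median log2 fold change was -0.11, 31 genes had a fold change below 0 (49.1% of all genes), 5 were lower at an unadjusted p below 0.05 (4.77% of all genes) and 10 had no overlap between treatments (13.1% of all genes). The count without overlap was 20 without vehicle replicate 2 (10.8% of all genes), 17 without vehicle replicate 3 (12.8%), 22 without caffeine replicate 1 (11.9%), 13 without caffeine replicate 2 (13.3%), 10 without caffeine replicate 3 (11.7%) and 26 with library size alone as the scale (14.0%). The count at an unadjusted p below 0.05 was 6 without caffeine replicate 2 (4.44% of all genes) and 5 without caffeine replicate 3 (3.51%).

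**Figure D1:**
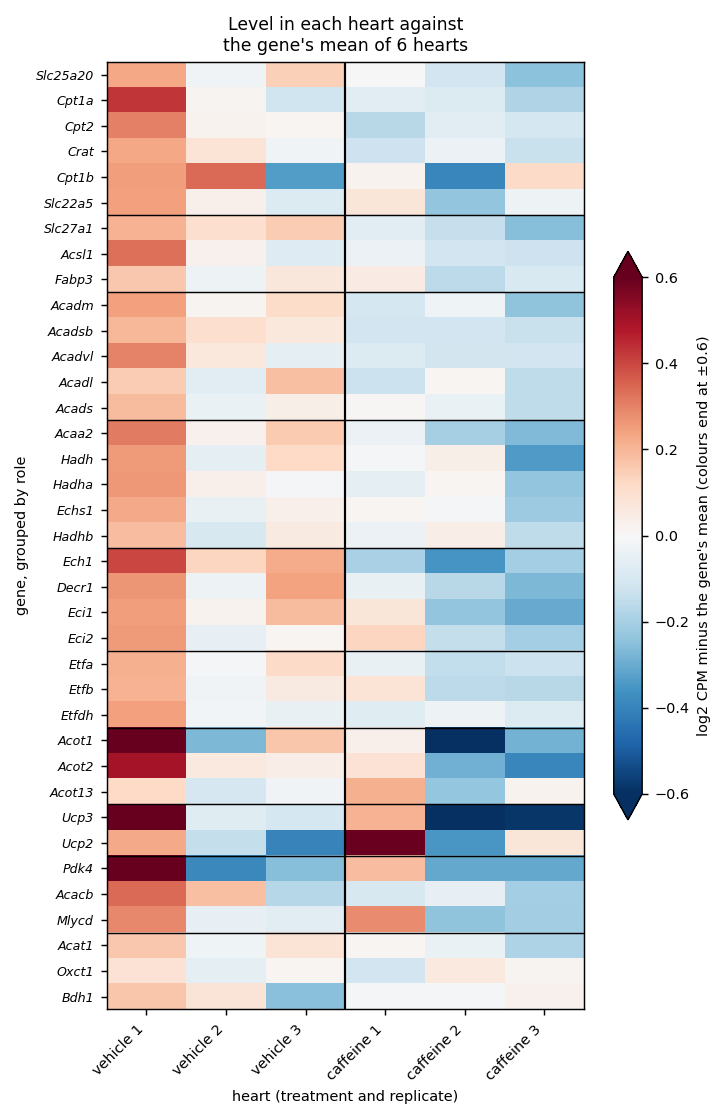
Level of each fatty acid oxidation gene in each heart, as log2 CPM (counts scaled to a common library size) minus the gene's mean over the 6 hearts, with red above and blue below that mean; rows are grouped by role and a vertical line parts the treatments. The column of vehicle replicate 1 is red in all 37 rows, and the blue rows of the caffeine-treated hearts are deepest in replicates 2 and 3.

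Total counts were 7613011 to 10483101 per heart, every caffeine-treated heart had fewer counts than every vehicle heart, and 3 counts corresponded to 0.286 to 0.394 CPM. The 37 genes held 20 to 20749 counts per heart. The summed level of 8 cardiomyocyte markers was 57784 to 67011 CPM in vehicle and 57900 to 61244 CPM in caffeine-treated hearts, with vehicle replicate 1 the highest. Of these 8 genes, 6 had a log2 fold change below 0 and 2 above. The values ran from -0.31 ± 0.15 for Myh6 to 0.15 ± 0.09 for Actc1. All 5 fibroblast markers and all 5 macrophage markers had a fold change above 0, with sums of 676 to 779 against 823 to 967 CPM and of 43.6 to 63.2 against 52.9 to 79.04 CPM. None of these 18 genes passed the test, and the part of cell makeup in the results below was not tested. The 6 white adipocyte markers together reached at most 3.13 CPM in any heart, the 3 skeletal muscle markers 0.608 CPM and the 3 atrial markers 2.05 CPM. The 3 brown adipocyte markers together were at 25.4 to 30.1 CPM. Of these, Cidea passed the filter on low counts, while Ucp1 and Elovl3 did not.

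PPAR receptors bind direct repeats of the half-site AGGTCA with a base between the copies, and ERRα binds an extended half-site. Windows from 250 bases before to 50 bases after the start were at hand for 31 of the 37 genes and for 27025 genes in all (RefSeq, GRCm38.p6), and both strands were searched. The direct repeat, exact or with 1 mismatch, was found in 0 of the 31 windows (0.05% and 0.64% of all genes). The extended half-site, TCA before AGGTCA, was found in 0 as well (0.47% of all genes). AGGTCA alone was in 6 of the 31 (19.35%), a share close to that of all genes (18.13%). Upstream matches of Acadvl, Cpt1a and Ucp3 are shown as examples of places where such a receptor could be looked for. Acadvl is a dehydrogenase with no overlap between treatments, and Cpt1a is the liver form of carnitine palmitoyltransferase 1. Ucp3, with 2 matches, has the largest fold change. Acadm and Echs1 also hold an upstream match, and Acacb holds one after the start, and these are not shown. The Cpt1a match lies inside the GENCODE span of the gene (3322334 to 3385733), upstream of a later start. Each match shown is given 5′ to 3′ on the strand of the gene, with the half-site or its reverse complement in capitals.
Acadvl, chr11:70015490-70015535, minus strand: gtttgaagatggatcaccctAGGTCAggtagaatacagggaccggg
Cpt1a, chr19:3323187-3323232, plus strand: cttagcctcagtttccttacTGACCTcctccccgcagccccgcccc
Ucp3, chr7:100472822-100472867, plus strand: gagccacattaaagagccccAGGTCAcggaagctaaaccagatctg
Ucp3, chr7:100472927-100472972, plus strand: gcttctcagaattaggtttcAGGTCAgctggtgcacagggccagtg
The last half-site begins 44 bases before the annotated start of Ucp3 and the other begins 149 bases before it. A match is a run of letters and was not tested for binding, and a window without a match does not speak for or against the receptor.

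Levels between genes were compared per kilobase of exon (RPKM). Fabp3, the cytosolic fatty acid carrier of heart, was the highest at 790 ± 52.0 RPKM (SD, n = 3) in vehicle and 721 RPKM in caffeine-treated hearts. Of its exon bases 19.56% are shared with genes on the other strand, and 26.03% of its windows of 75 bases, the read length, also occur in other genes, Fabp3-ps1 among them, so its rank is uncertain. Ech1 followed with 736 ± 71.6 against 519 RPKM, and Acadl, the long-chain acyl-CoA dehydrogenase, with 671 ± 61.5 against 592 RPKM. Neighbours in this order overlapped within their SDs in vehicle hearts. In CPM, Fabp3 had 693, 607 and 650 in vehicle hearts and 642, 557 and 582 in caffeine-treated hearts. Acadl had 1400, 1204 and 1432 CPM in vehicle and 1155, 1274 and 1134 CPM in caffeine-treated hearts. Both overlapped between treatments, with log2 fold changes of -0.13 ± 0.09 (SE; adjusted p = 0.734) and -0.18 ± 0.10 (adjusted p = 0.641). At the other end stood Acot1 at 1.13 RPKM, Cpt1b at 3.24, Cpt1a at 5.08 and Slc22a5 at 8.61 in vehicle hearts. Windows of 75 bases also found in other genes made up 77.11% for Cpt1b, 17.1% for Slc22a5 and 14.98% for Acot1. Their low ranks, and the order of Cpt1b and Cpt1a, are therefore uncertain too.

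**Figure D2:**
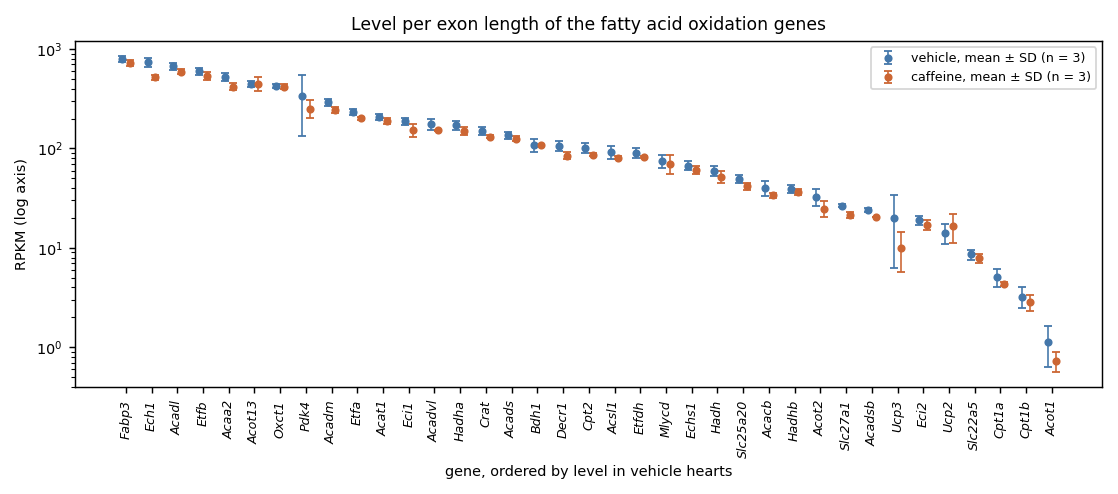
Level per kilobase of exon (RPKM, log axis) of the 37 genes in order of their vehicle mean, with points for the mean of 3 hearts and bars for the SD. Levels span 790 RPKM for Fabp3 to 1.13 RPKM for Acot1, and the widest bars belong to Pdk4, Ucp3 and Acot1.

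The auxiliary enzymes that prepare double bonds for oxidation had a median log2 fold change of -0.31 over 4 genes, and 2 of the 4 had no overlap between treatments (7.12% of all genes). Ech1 (ENSMUSG00000053898, GRCm38 chromosome 7, 28825217 to 28832247) codes for a dienoyl-CoA isomerase of mitochondria and peroxisomes. It had 1860, 1540 and 1642 CPM in vehicle hearts and 1231, 1103 and 1221 CPM in caffeine-treated hearts. All 3 caffeine-treated hearts were below the lowest vehicle heart by at least 310 CPM, where the vehicle hearts ranged over 320 CPM and the caffeine-treated hearts over 128 CPM. The mean was 29.5% lower by the fitted log2 fold change of -0.50 ± 0.10 (95% interval -0.72 to -0.29, adjusted p = 0.102). Without vehicle replicate 1 it was -0.43, and over 17 alternatives it ranged from -0.59 to -0.43, so its direction did not rest on that heart. Its adjusted p was below 0.05 in 6 of those alternatives and above in the rest, up to 0.247. With library size alone as the scale it passed both thresholds (log2 fold change -0.59, adjusted p = 0.0236).

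Decr1 (ENSMUSG00000028223, chromosome 4, 15917240 to 15945507), the mitochondrial dienoyl-CoA reductase, had 440, 360 and 434 CPM in vehicle and 356, 327 and 305 CPM in caffeine-treated hearts. The groups were separated by only 3.69 CPM, between vehicle replicate 2 and caffeine replicate 1. Its log2 fold change was -0.32 ± 0.10 (20.0% lower, adjusted p = 0.348). Eci1 and Eci2, the enoyl-CoA isomerases, overlapped between treatments with log2 fold changes of -0.30 ± 0.11 and -0.15 ± 0.11.

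The acyl-CoA dehydrogenases, which take the first electrons from the acyl chain, were all 5 below 0, with a median of -0.21. Acadsb (ENSMUSG00000030861, chromosome 7, 131410601 to 131448944), the short/branched-chain enzyme, had 183, 171 and 166 CPM in vehicle hearts and 147, 147 and 145 CPM in caffeine-treated hearts. Its caffeine-treated hearts were nearly equal, and the gap of 19.0 CPM to the vehicle hearts was wider than their range of 16.8 CPM. The log2 fold change was -0.24 ± 0.08 (15.5% lower, adjusted p = 0.361) and -0.20 without vehicle replicate 1. Acadm, the medium-chain enzyme, had 1243, 1058 and 1131 CPM in vehicle and 974, 1027 and 884 CPM in caffeine-treated hearts, with no overlap and a log2 fold change of -0.25 ± 0.09 (adjusted p = 0.446). Acadvl, the very long-chain enzyme of the inner membrane, had 543, 462 and 426 CPM against 417, 409 and 408 CPM, also with no overlap, and a log2 fold change of -0.21 ± 0.10 (adjusted p = 0.573) that came to -0.11 without vehicle replicate 1. Its exons share 42.85% of their bases with Dvl2 on the other strand, and the library kit is not stated to mark strand, so reads of the pair cannot be told apart there. Acads, the short-chain enzyme, had a log2 fold change of -0.12 ± 0.09.

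The later steps of the spiral were all 5 below 0 with a median of -0.19. Acaa2 (ENSMUSG00000036880), a mitochondrial thiolase, had 879, 722 and 789 CPM in vehicle hearts and 693, 618 and 590 CPM in caffeine-treated hearts. The treatments did not overlap. The log2 fold change was -0.33 ± 0.10 (20.5% lower, adjusted p = 0.318), and -0.25 without vehicle replicate 1. Hadha and Hadhb, the subunits of the trifunctional protein that act together on long chains, had -0.19 ± 0.10 and -0.10 ± 0.10, Echs1, the short-chain hydratase, -0.14 ± 0.10 and Hadh, the short-chain dehydrogenase of 3-hydroxyacyl-CoA, -0.20 ± 0.12. These 4 genes overlapped between treatments, and in each of them vehicle replicate 1 was the highest heart and caffeine replicate 3 the lowest.

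**Figure D3:**
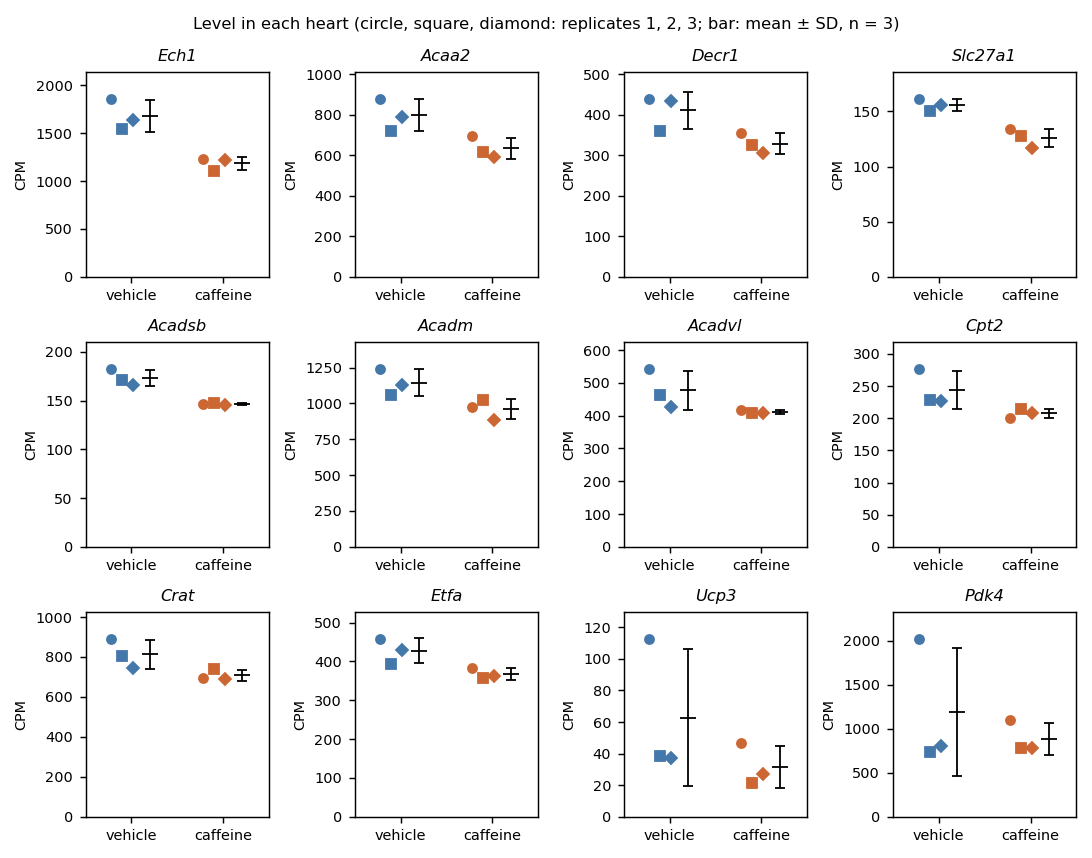
CPM in each heart of the 10 genes with no overlap between treatments and of Ucp3 and Pdk4, on axes that start at 0; circle, square and diamond are replicates 1, 2 and 3, and the bar beside them is the mean ± SD. Ech1 shows the widest gap between treatments, whereas in Ucp3 and Pdk4 vehicle replicate 1 stands far above the other 5 hearts.

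The 3 uptake and activation genes had fold changes below 0, and none passed the test. Slc27a1 (ENSMUSG00000031808, chromosome 8, 71568882 to 71587302), the fatty acid transport protein FATP1, had 161, 150 and 155 CPM in vehicle hearts and 134, 127 and 117 CPM in caffeine-treated hearts. Its vehicle hearts lay within 11.3 CPM, and the treatments were 16.5 CPM apart. The log2 fold change of -0.31 ± 0.09 (19.1% lower, adjusted p = 0.279) ranged from -0.35 to -0.25 as each heart was left out. Acsl1, the main long-chain acyl-CoA synthetase of heart, had -0.19 ± 0.11, and -0.07 without vehicle replicate 1.

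In the carnitine shuttle all 6 genes were below 0, with a median of -0.21. Cpt2, which turns acylcarnitine back to acyl-CoA in the matrix, had 277, 228 and 226 CPM in vehicle and 200, 215 and 209 CPM in caffeine-treated hearts. Crat, the carnitine acetyltransferase, had 892, 803 and 747 CPM against 697, 741 and 691 CPM. Neither gene overlapped between treatments, yet the treatments of Crat were only 6.36 CPM apart, and the log2 fold changes were -0.23 ± 0.10 (adjusted p = 0.541) and -0.20 ± 0.09 (adjusted p = 0.564). Slc25a20, the exchanger for carnitine and acylcarnitine, had -0.24 ± 0.10, Slc22a5, the plasma membrane carnitine transporter OCTN2, -0.13 ± 0.13, and Cpt1a, the liver form of the gate enzyme, -0.235 ± 0.14. Cpt1b, the muscle form, was at only 7.68 to 12.8 CPM. Of its windows of 75 bases, 77.11% also occur in the readthrough transcript Gm44502, which lies over Chkb and Cpt1b and was not among the counted genes under that identifier. Its level is therefore uncertain, and its log2 fold change was -0.19 ± 0.21.

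Electrons leave the dehydrogenases through the electron transfer flavoprotein. Etfa, its alpha subunit, had 459, 394 and 429 CPM in vehicle hearts and 384, 358 and 362 CPM in caffeine-treated hearts, with no overlap, and a log2 fold change of -0.22 ± 0.09 (adjusted p = 0.501). Etfb, the beta subunit, had -0.16 ± 0.10, and 39.61% of its windows of 75 bases also occur in Gm45233. Etfdh, the oxidoreductase that hands the electrons to ubiquinone, had -0.13 ± 0.095. Both overlapped between treatments.

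Ucp3 and Pdk4 had large fold changes in which a single heart weighed heavily. Ucp3 (ENSMUSG00000032942, chromosome 7, 100472990 to 100486432), a mitochondrial carrier known for its regulation by fatty acids and fasting, had 113, 38.3 and 37.4 CPM in vehicle hearts and 46.6, 21.1 and 26.9 CPM in caffeine-treated hearts. Vehicle replicate 1 was far above the rest, and caffeine replicate 1 was above the other 2 vehicle hearts. Its log2 fold change was -1.01 ± 0.41 (adjusted p = 0.512) with all hearts and -0.28 without vehicle replicate 1, and its tagwise coefficient of variation was 33.8%, against 12.1% for all genes together. Pdk4, the kinase that switches off pyruvate dehydrogenase, had 2027, 739 and 810 CPM in vehicle and 1096, 780 and 782 CPM in caffeine-treated hearts. Its log2 fold change of -0.43 ± 0.32 (adjusted p = 0.767) turned to 0.19 without vehicle replicate 1. Without that heart the adjusted p was 0.814 for Ucp3 and 0.756 for Pdk4.

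The 3 thioesterases release free fatty acid from acyl-CoA, and vehicle replicate 1 was the highest heart in Acot1 and Acot2 but not in Acot13. Acot2, the mitochondrial form, had 87.7, 64.7 and 63.8 CPM in vehicle hearts and 65.9, 50.8 and 47.4 CPM in caffeine-treated hearts. Caffeine replicate 1 reached the lower vehicle hearts, so the groups overlapped. The log2 fold change was -0.40 ± 0.15 (adjusted p = 0.446) and -0.24 without vehicle replicate 1. Acot1, the cytosolic form, was at 6.64, 2.84 and 3.85 CPM in vehicle and 3.5, 2.26 and 2.81 CPM in caffeine-treated hearts, with -0.65 ± 0.34 (adjusted p = 0.634), and -0.23 without vehicle replicate 1. The pair share part of their sequence: 14.98% of the windows of Acot1 and 21.21% of those of Acot2 occur in other genes, each other among them, so reads could be split between them. Acot13 had 0.01 ± 0.11 and changed sign in 4 of 17 alternatives.

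The remaining genes gave small or uncertain differences. Ucp2, expressed also in immune cells, was 1 of the 2 genes with a fold change above 0 (0.24 ± 0.21), with its highest value of 157 CPM in caffeine replicate 1 and 78.8 to 122 CPM in vehicle hearts. Acacb, the acetyl-CoA carboxylase that makes malonyl-CoA at mitochondria, had -0.25 ± 0.12, and Mlycd, the decarboxylase that removes it, -0.10 ± 0.15. Ketone body use, a neighbouring route to acetyl-CoA, was the group nearest to 0. Oxct1, its rate-limiting transferase, had -0.03 ± 0.09, Bdh1, the hydroxybutyrate dehydrogenase, -0.01 ± 0.11, and Acat1, the acetoacetyl-CoA thiolase, -0.15 ± 0.09. The 95% intervals of Oxct1 (-0.22 to 0.17) and Bdh1 (-0.24 to 0.23) reach as far as the fold changes of Acadvl and Etfa.

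**Figure D4:**
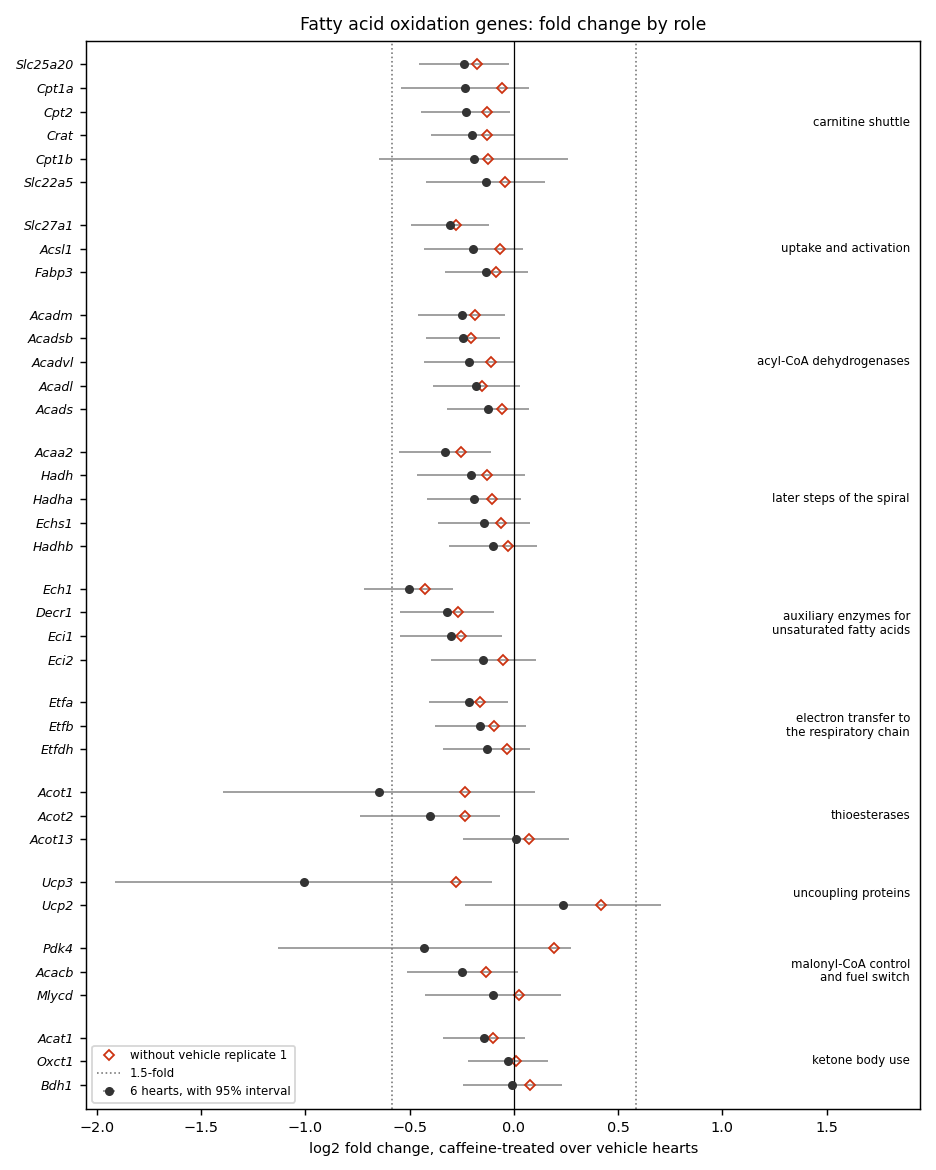
Log2 fold change of caffeine-treated over vehicle hearts for the 37 genes by role, with filled points and 95% intervals from all 6 hearts and open diamonds from the fit without vehicle replicate 1; dotted lines mark a fold of 1.5. The diamond lies to the right of the filled point in all 37 genes and crosses 0 in 4 (Pdk4, Mlycd, Oxct1 and Bdh1).

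Each 95% interval gives a range for a single gene, from the fit that treats the hearts as independent. For 30 of the 37 genes the whole 95% interval lay within a fold of 1.5 in either direction. The other 7 were Cpt1b, Ech1, Acot1, Acot2, Ucp2, Ucp3 and Pdk4. Across all genes, the 95% interval lay within that range for 8247 of 13092.

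The other genes of fatty acid and energy metabolism were read from the same fit, and none of the 4 lists held a gene past the thresholds. Of 51 further genes of fatty acid handling that were tested, 36 had a fold change below 0, 5 (9.8%) had all caffeine-treated hearts below vehicle, near the 7.12% of all genes, 1 had all above, and the median was -0.10. The fatty acid translocase Cd36 had a log2 fold change of -0.06 ± 0.09, lipoprotein lipase (Lpl) -0.09 ± 0.09, the droplet protein Plin5 -0.11 ± 0.16 and the triglyceride lipase Pnpla2 -0.18 ± 0.10. The lowest value was that of Angptl4, an inhibitor of lipoprotein lipase, with 21.3, 15.7 and 15.1 CPM in vehicle and 17.1, 6.66 and 10.9 CPM in caffeine-treated hearts (-0.61 ± 0.27, adjusted p = 0.561). The highest was that of the carrier Fabp5 (0.63 ± 0.24, adjusted p = 0.481). Both overlapped between treatments.

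Of the 24 PPAR, ERR and PGC-1 regulators, 16 were below 0, and the median was -0.06. Ppara had -0.13 ± 0.12, Ppargc1a 0.03 ± 0.16 and Esrra 0.01 ± 0.10. The last 2 changed sign with library size alone as the scale (-0.05 and -0.08). The range of the list ran from the lipin Lpin1 (-0.32 ± 0.13), which is also counted in fatty acid handling, to Pparg (0.19 ± 0.12). In 2 of the 24 (8.33%), Rxra (-0.26 ± 0.09) and Nrip1 (-0.25 ± 0.13), every caffeine-treated heart was below every vehicle heart, against 7.12% of all genes. The gap between treatments was 5.45 CPM for Rxra but only 0.032 CPM for Nrip1. In 1 of the 24, Pparg, every caffeine-treated heart was above, by 0.614 CPM or more, against 7.11% of all genes. Vehicle replicate 1 was the highest heart in 1 of these 24 genes.

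Of 36 glucose, glycolysis and pyruvate genes, 22 were below 0 and 14 above, with a median of -0.03. In 3 of the 36 (8.33%) every caffeine-treated heart was below every vehicle heart, against 7.12% of all genes. In 4 of the 36 every caffeine-treated heart was above, against 7.11% of all genes. The glucose transporter Slc2a4 had 0.04 ± 0.08, and -0.04 with library size alone. The lowest, the phosphoglycerate mutase Pgam1, had 3.64 to 7.19 CPM and -0.44 ± 0.24 (adjusted p = 0.652).

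Among 76 nuclear-encoded genes of the respiratory chain and ATP synthase, 68 were below 0, a share of 89.5%, but by less, with a median of -0.05. In 2 of the 76 (2.63%) all caffeine-treated hearts were below vehicle, against 7.12% of all genes. The range ran from Atp5l (-0.38 ± 0.37), at 0.821 to 2.38 CPM, to Ndufb8 (0.12 ± 0.10). Vehicle replicate 1 was the highest heart in 62 of the 76, much as in the fatty acid oxidation genes. The difference between this list and the fatty acid oxidation genes was not tested, and the lists are set side by side as a description.

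**Figure D5:**
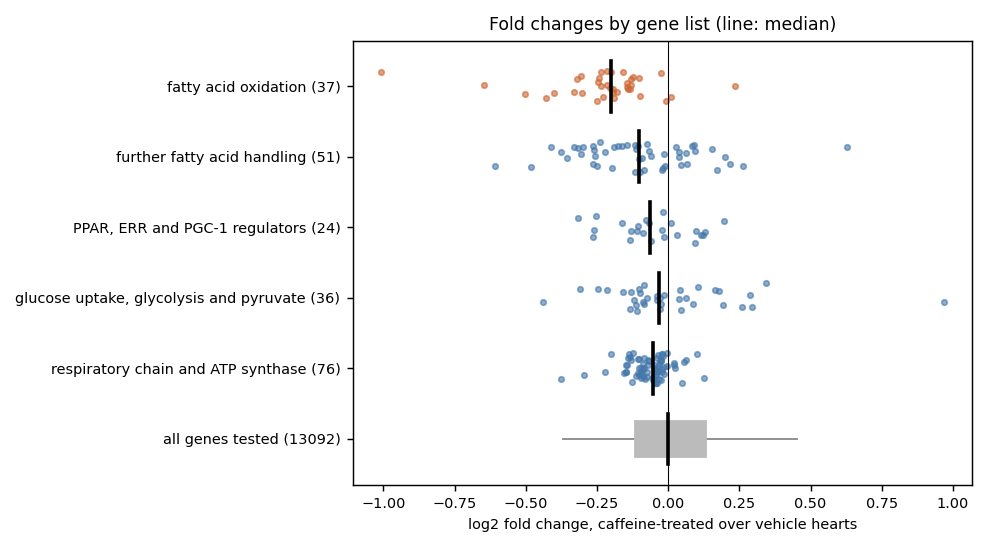
Log2 fold changes of caffeine-treated over vehicle hearts for the fatty acid oxidation genes and 4 further lists, each point a gene and each line a median; for all genes tested the box spans the quartiles and the thin line the percentiles from 5 to 95. The fatty acid oxidation genes have a median of -0.20, and the other lists have medians between -0.10 and -0.03.

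Outside these lists, the tested genes whose log2 CPM over the 6 hearts lay closest to the median profile of the 37 genes were Idh2, the mitochondrial NADP-dependent isocitrate dehydrogenase (Pearson r = 0.990), Mtrf1l, a mitochondrial translation release factor (0.989), Pdzd8 (0.980), Plbd1 (0.976) and Parl, a protease of the inner mitochondrial membrane (0.972). These are the highest of all r over 6 libraries that the genes share, and they are given as a description.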

How the data were processed

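The deposited values were raw counts per gene: per the labels and methods, the authors cleaned single-end reads with FastQC, mapped them with TopHat2 to mm10 (GRCm38) and counted them with HTSeq, without normalization. Their tool versions are not given in the sources used here. Everything else was computed here. Genes were filtered with filterByExpr (minimum count 10, minimum total 15), scaled by TMM and fitted with edgeR 4.0.16 (R 4.3.3; glmQLFit, glmQLFTest, treatment as the only term) across all 13092 genes, with Benjamini-Hochberg adjustment over all of them. CPM use the TMM factors, and RPKM divide CPM by the exon length of GENCODE (GRCm38), which is not the annotation of the counts. Of 43629 identifiers 42548 had a symbol. The common coefficient of variation was 12.1%. An exact permutation test of 3 against 3 hearts cannot go below p = 0.1 and was not used. The fit was tested on simulated data. These gave every gene the same spread between hearts and held no outlying heart, so that test does not cover a heart such as vehicle replicate 1. Named genes were those with no overlap, the 5 largest fold changes, the 5 smallest p, the 3 highest per length, the extremes of each further list and 9 further genes, of which 1 is not reported here. The members and lists were chosen with earlier results of these data known. Alternatives used DESeq2 1.42.0 and limma 3.58.1.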

Additional observations from a re-analysis of the deposited data

How the results depend on the processing

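The median log2 fold change of the 37 genes stayed below 0 under all 17 alternatives, from -0.28 with library size alone (where the median of all genes was -0.08) to -0.11 without vehicle replicate 1. With library size alone 26 genes had all caffeine-treated hearts below vehicle (14.0% of all genes), and 1 gene, Ech1, passed the thresholds. Without a filter on low counts 1 gene, Ucp3, passed, and 6 of the 37, Ucp3 among them, had an adjusted p below 0.05. By the quasi-likelihood test the adjusted p of Ucp3 was 1.28e-14 there and 0.512 in the main fit. Its counts were the same, and the reason for this jump was not tested. As each replicate was left out, 10 to 22 genes had no overlap (10.8% to 13.3% of all genes), with 10 in the full data (7.12% of all genes), and 0 passed. The 10 highest genes of each heart held 17.1% to 20.1% of its counts in vehicle and 22.6% to 26.0% in caffeine-treated hearts. Library size alone does not adjust for such a difference. Leaving out the 10 genes with the highest counts, chosen after seeing the data, changed no call under TMM.

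Over all genes, the counts called higher and lower were 61 and 33 by edgeR's exact test, 63 and 38 by its likelihood ratio test, 39 and 28 by DESeq2, 12 and 15 with library size alone, 145 and 95 without a filter, and 4 to 17 and 0 to 13 as each replicate was left out. Both groups carry the same replicate numbers. With the replicate number as a block 29 and 11 genes were called and 0 of the 37, and the correlations of same-numbered hearts were 0.045, -0.03 and -0.0375, so the numbers were not taken as pairs. The causes of these shifts were not tested.

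For single genes of the 37, 614 of 629 values kept their sign and their side of the thresholds, and 13 changed sign. Acot13 did so with library size alone (-0.073) and no filter (-0.011), and Bdh1 with limma-voom (0.0042) and the replicate block (0.0039). As hearts were left out, the values ran from -0.10 to 0.12 for Acot13, from -0.12 to 0.079 for Bdh1, from -0.68 to 0.19 for Pdk4, from -0.062 to 0.022 for Oxct1, from -0.29 to 0.024 for Mlycd and from -0.043 to 0.44 for Ucp2. Of the other named genes, Esrra changed sign with library size alone (-0.080) and no filter (-0.013), Slc2a4 (-0.045) and Ppargc1a (-0.051) with library size alone. As hearts were left out, the ranges were -0.081 to 0.070 for Esrra, -0.0080 to 0.075 for Slc2a4, -0.15 to 0.15 for Ppargc1a, -0.10 to 0.016 for Cd36, -0.29 to 0.036 for Plin5 and -0.0004 to 0.19 for Ndufb8. The call requires a fold above 1.5, which the fitted values of 2 of the 37 genes exceeded.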
